A study of Mus musculus with 2 samples.

Results

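The 4 mature products of the microRNA (miRNA) hairpins miR-221 and miR-222 are described here, of 1147 entries measured in small RNA libraries from the jejunal tunica muscularis (the muscle wall peeled from the mucosa of the jejunum, a part of the small intestine). They were chosen by name, as every mature entry of either hairpin and either arm: mmu-miR-221-3p, mmu-miR-222-3p, mmu-miR-221-5p and mmu-miR-222-5p, written below without the species prefix. The 5p and 3p products are the strands cut from the left and right arm of a hairpin. The libraries came from mice on a C57BL/6 background at an age of 15 days. *Dnmt1*-KO mice carried *Cre* and eGFP under the *Myh11* promoter, which is active in smooth muscle, together with floxed *Dnmt1*, the gene for the maintenance DNA methyltransferase, so that deletion was limited to cells that had expressed the transgene. *Dnmt1*-WT mice carried the same *Cre*-eGFP transgene, per the study. The labels of both samples name the strain Dnmt1lox/lox and, in a free-text field, smMHCCre-eGFP/+;Dnmt1-/-, so the groups follow the title and the genotype field, which give Dnmt1 WT for the first and Dnmt1 KO for the second. Each genotype was represented by 1 library. The methods list animals of both sexes for each genotype without saying whether the RNA was pooled, and the spread between animals is therefore unknown. *Dnmt1* messenger RNA is not measured by small RNA libraries, so the genotype could not be checked in these data.

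MicroRNAs guide Argonaute proteins to messenger RNAs that pair with their seed, which lowers the stability or translation of those messages. miR-221 and miR-222 are cut from a shared transcript of the X chromosome and have the same seed. They are known to act on *Kit*, the receptor for stem cell factor, and on *Cdkn1b* and *Cdkn1c*, which encode the cell-cycle inhibitors p27 and p57. In vascular smooth muscle they are known for promoting proliferation. In the gut muscle wall, KIT marks the interstitial cells of Cajal, the pacemaker cells of peristalsis, and also mast cells.

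The mature sequences are shown 5′ to 3′ with the seed (bases 2 to 8) in capitals, because the shared seed is what joins the 3p products of both hairpins into 1 family. The sequences are those of RefSeq (GRCm38.p6), which held 3 of the 4 products.
miR-221-3p: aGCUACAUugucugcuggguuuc
miR-222-3p: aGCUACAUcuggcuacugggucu
miR-221-5p: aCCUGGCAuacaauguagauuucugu
The 3p products were identical over their first 8 bases and, aligned without gaps, at 11 of 23 positions. miR-221-5p had another seed, which no other miRNA of the RefSeq table carried. The 3p seed occurred in 1 further RefSeq miRNA, miR-1928, which had no entry in the data.

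Both hairpins lie on the minus strand of chromosome X in GRCm38, *Mir221* at chrX:19146294-19146388 and *Mir222* at chrX:19146893-19146971, with 504 bases between them. On that strand *Mir222* comes first. The mature products map to chrX:19146307-19146329 (miR-221-3p), chrX:19146344-19146369 (miR-221-5p) and chrX:19146901-19146923 (miR-222-3p). No other gene of GENCODE release M21 overlapped either hairpin. The nearest annotated gene apart from the hairpins themselves was *Gm14636*, a noncoding transcript of the same strand 10010 bases upstream of *Mir222*, and the nearest protein-coding gene was *Tex13c3*, 332 kb from *Mir222*.

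The WT library held 5741906 deposited units and the KO library 4754677, each unit standing for nearly 1 read. A mean over both libraries of 100 or more was reached by 316 of the 1147 entries. Library totals had not been made equal. Equal totals multiply every ratio by 1.21, so each ratio depends on this choice. Intervals are exact (Clopper-Pearson) 95% binomial intervals of the implied reads. They cover counting error only, since each genotype had 1 library. PCR copies of a molecule were counted as separate reads, which the intervals do not allow for.

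The 3p products of both hairpins were higher in *Dnmt1*-KO, by 1.75-fold for miR-221-3p and 1.67-fold for miR-222-3p. miR-221-3p, the most abundant of the 4, stood at 1232.5 in the *Dnmt1*-WT library and 2160.9 in the *Dnmt1*-KO library. Its KO/WT ratio was 1.75 (95% interval 1.63 to 1.88). miR-222-3p stood at 567.6 in WT and 949.3 in KO, a ratio of 1.67 (1.51 to 1.86). The counting intervals of both ratios lay above 1 and below 2. Without replicates no test of the genotypes was possible.

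The passenger arms, which are usually degraded, were far less abundant. miR-221-5p stood at 86.2 in WT and 114.7 in KO, with a ratio of 1.33 (0.997 to 1.78), so at this depth a difference between the libraries was not detectable on the deposited scale. miR-222-5p rested on 2 reads in WT and 6 in KO, and its ratio of 3.0 had an interval of 0.533 to 30.2. The direction of miR-222-5p was therefore not determined at this depth.

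Summed over the 4 products, the level was 1888.3 in WT and 3230.9 in KO, a ratio of 1.71 (1.62 to 1.81). The family took 0.0329% of the WT library and 0.0680% of the KO library, with miR-143-3p, the most abundant miRNA of the tissue, part of both totals. Among the 1080 mature entries, miR-221-3p ranked 129 by abundance in WT and 97 in KO. miR-222-3p ranked 164 and 143, and miR-221-5p ranked 314 and 302. All 3 thus stood at a higher rank in KO.

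**Figure D1:**
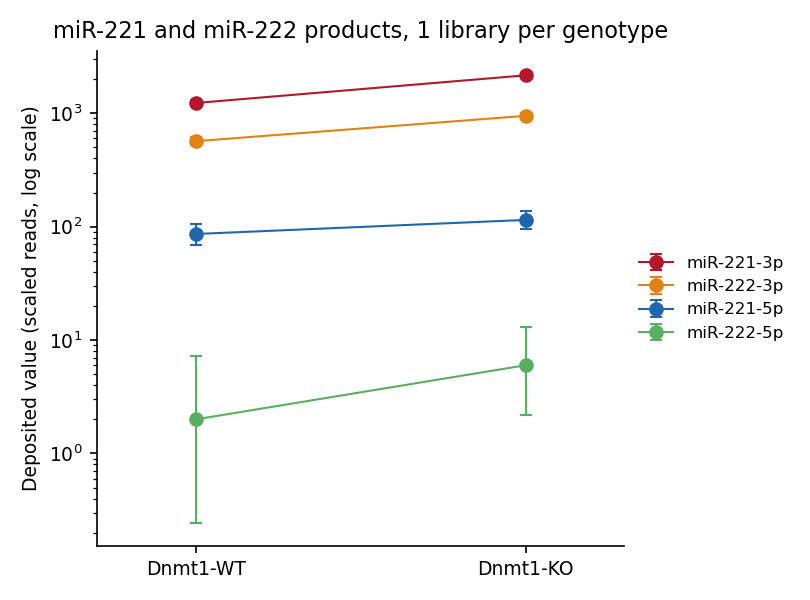
Deposited values (scaled reads, log axis) of the 4 products in the *Dnmt1*-WT and *Dnmt1*-KO libraries, 1 library each; bars are exact 95% counting intervals and lines join the same product. miR-221-3p moves from 1232.5 to 2160.9 and miR-222-3p from 567.6 to 949.3, in near-parallel, while miR-222-5p rests on 2 and 6 reads.

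The scale of the libraries set on which side of 2-fold the 3p products fell. With equal totals the ratios were 2.12 for miR-221-3p (1.97 to 2.27), 2.02 for miR-222-3p (1.82 to 2.25) and 1.61 for miR-221-5p (1.20 to 2.15). With totals made equal after leaving out miR-143-3p they were 1.97, 1.88 and 1.5. With the median of the abundant entries centred they were 1.80, 1.71 and 1.36. The direction of all 3 was the same under each of the 4 scales. The interval of miR-221-5p reached below 1 only on the deposited scale.

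**Figure D2:**
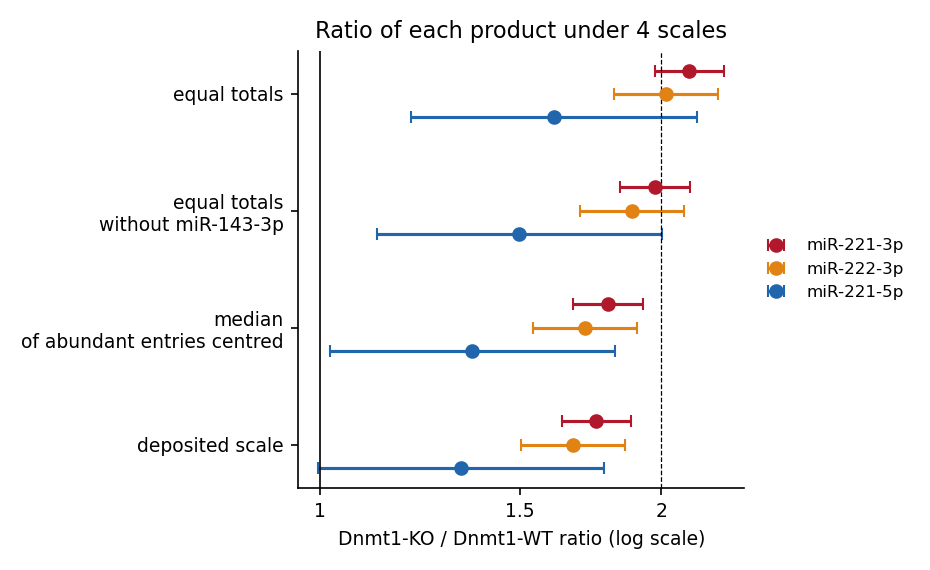
KO/WT ratio (log axis) of miR-221-3p, miR-222-3p and miR-221-5p under 4 ways of scaling the libraries; bars are exact 95% counting intervals, the solid line marks 1 and the dashed line 2. The ratios of the 3p products run from 1.67 to 2.12 and stay right of the solid line, and both pass 2 only with equal totals.

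Set against all entries of that abundance, the 3p products were in the upper part but not at the edge of the range. On the deposited scale 6.33% of the 316 entries exceeded their WT level 2-fold or more in KO (20 entries) and 8.86% fell short of it by as much (28 entries). None of the 3 members with such a mean was among them. At 1.5-fold, 17.4% of entries were higher and 20.9% lower, and 2 of the 3 members, miR-221-3p and miR-222-3p, were among the higher ones. miR-221-5p entered this set only narrowly, with a mean of 100.45, and its WT value was under 100. Ratios above 1 were found in 47.5% of the entries and in all 3 of these members. Of the 313 entries above 0 in both libraries, 27 had a higher ratio than miR-221-3p, 36 a higher ratio than miR-222-3p and 72 a higher ratio than miR-221-5p. With equal totals 41 entries were at least 2-fold higher and 15 lower, which is 13.0% and 4.75%, and the higher ones then took in both 3p products. At 1.5-fold the shares were then 31.0% higher and 11.4% lower, and 64.6% had a ratio above 1. Without miR-143-3p in the totals, 9.18% were 2-fold higher and 5.06% lower, 23.7% were 1.5-fold higher and 15.5% lower, and 60.1% had a ratio above 1. With the median centred these shares were 6.96% and 8.54%, 19.0% and 20.3%, and 50.3%. The log2 ratio over the 313 entries had a median of -0.03 and an SD of 0.76, beside 0.81 for miR-221-3p, 0.74 for miR-222-3p and 0.41 for miR-221-5p.

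**Figure D3:**
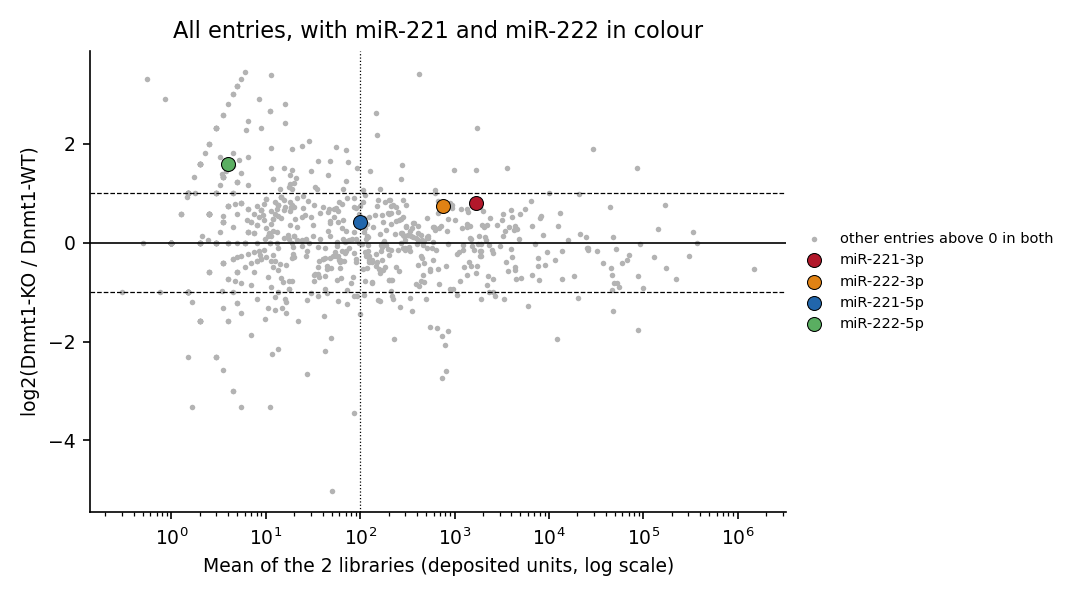
log2 KO/WT ratio against the mean of the 2 libraries (deposited units, log axis) for entries above 0 in both; the members are in colour, dashed lines mark 2-fold and the dotted line a mean of 100. miR-221-3p (0.81) and miR-222-3p (0.74) lie close together below the upper dashed line, and miR-221-5p sits on the dotted line at 0.41.

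The balance between the hairpins was compared next, because the ratio of miR-222-3p to miR-221-3p within a library does not depend on how the libraries are scaled. For each read of miR-221-3p there was 0.461 of miR-222-3p in WT (0.416 to 0.509) and 0.439 in KO (0.407 to 0.474). miR-221-3p thus had 2.17 times the reads of miR-222-3p in WT and 2.28 times in KO. These are ratios of reads, and how evenly different sequences were captured was not measured. The KO ratio divided by the WT ratio was 0.954, with an exact conditional 95% interval of 0.840 to 1.08. A change of the balance between the hairpins was not detectable at this depth.

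Other pairs of adjacent hairpins show how far products of 1 cluster lay apart in these libraries. Pairs were formed of hairpins next to each other in the RefSeq table, on the same strand and at most 10 kb apart. Each hairpin was represented by its most abundant product not shared with another locus, which in 3 of the pairs was the lesser arm (miR-16-2-3p, miR-24-2-5p and miR-30c-1-3p). In 42 pairs both products reached the mean of 100. Of these, 26 lay on chromosome 12 and 3 on chromosome X, and many share a hairpin, so they are not independent. The log2 ratios of miR-221-3p and miR-222-3p differed by 0.07, where the median difference over the pairs was 0.30. A smaller difference was found in 10 pairs and a larger one in 31. Both products were higher in KO in 23 pairs, both lower in 11 and opposite in 8, which became 30, 6 and 6 with equal totals. On any scale 2 pairs were at least 2-fold apart. On the deposited scale both products were at least 1.5-fold higher in 4 pairs, of which miR-221 with miR-222 was 1. Equal totals raise every ratio, and more pairs then pass 1.5-fold, miR-379-5p with miR-411-5p among them. *Mir351*, between *Mir542* and *Mir503* on chromosome X, has no hairpin sequence in the table and was passed over. With such hairpins placed by their mature products, and those whose most abundant product is shared left out, there were again 42 pairs, with both products higher in 23, both lower in 8 and opposite in 11. The median difference was then 0.36, with 10 pairs closer than miR-221 and miR-222 and 31 further apart. In the X-linked cluster of miR-322 the differences were then 0.15 (miR-503-3p and miR-322-5p), 0.75 (miR-351-5p and miR-503-3p) and 0.98 (miR-542-3p and miR-351-5p). The log2 ratio of miR-351-5p was -0.18 on the deposited scale, opposite to its neighbours, and above 0 with equal totals.

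The arms of miR-221 were compared in the same way. The 5p product made up 6.54% of the reads of the hairpin in WT (86 of 1315 reads, 5.26 to 8.01%) and 5.04% in KO (115 of 2282, 4.18 to 6.02%). The 3p product had 14.3 times the reads of the 5p product in WT and 18.8 times in KO. The odds of a 5p read in KO were 0.758 times those in WT, with an exact conditional interval of 0.563 to 1.02. The share of the passenger arm was thus lower in KO by 1.5 percentage points, a difference within counting error at this depth. For miR-222 the 5p product made up 0.351% of reads in WT (0.0427 to 1.27%) and 0.628% in KO (0.230 to 1.36%), and the odds ratio of 1.78 had an interval of 0.317 to 18.1.

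The hairpins differed in the share of their reads that came from the 3p product. The intervals of the 5p share of miR-221 and of miR-222 did not overlap in either library.

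Over the 62 hairpins in which each arm reached a mean of 100, the arms of miR-221 were nearer to each other than the median. Their log2 ratios differed by 0.40, beside a median of 0.49. There were 26 hairpins with a smaller difference and 35 with a larger one, and 12 had arms at least 2-fold apart. Directions here go by the ratio alone, and the interval of miR-221-5p reached below 1 on the deposited scale. Both arms were higher in KO in 25 hairpins, miR-221 among them, both were lower in 21, and in 16 the arms went opposite ways. With equal totals these counts were 30, 11 and 21. Of the 25, the 3p product was ahead in 16, as it was in miR-221. The more abundant arm was 3p in both libraries in 23 hairpins and 5p in 35, and it differed between the libraries in 4. The 5p share moved by a median of 2.68 percentage points.

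**Figure D4:**
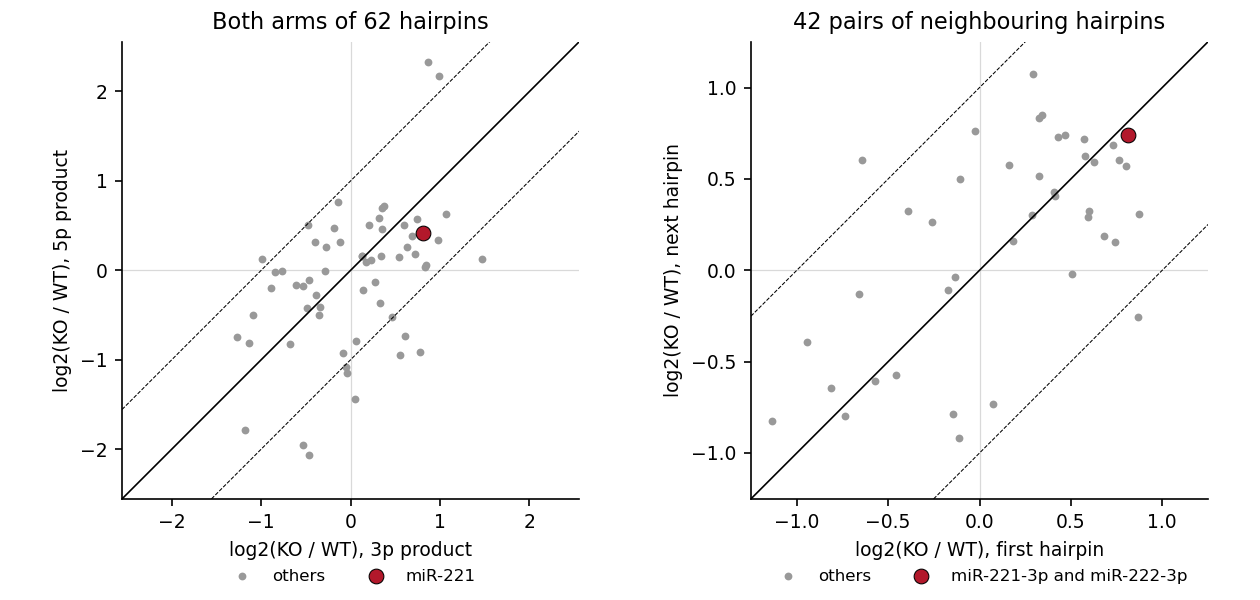
log2 KO/WT ratios of the 5p against the 3p product of 62 hairpins (left) and of 42 pairs of adjacent hairpins, each by its most abundant product not shared with another locus (right), with miR-221 and its pairing with miR-222 in red; the solid line marks equal ratios and the dashed lines a 2-fold gap. miR-221 lies 0.40 below the line on the left, and the pair lies 0.07 from it on the right.

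The entries whose ratio was nearest to that of the summed family, 1.71, were sought among the 135 other mature entries with a mean of at least 1000. With 1 library per genotype this likeness is that of a single ratio. They were miR-127-3p (127574 in WT and 216270 in KO, ratio 1.70), miR-541-5p (ratio 1.66), miR-322-5p (1421.0 and 2341.4, ratio 1.65), miR-192-5p (ratio 1.79) and miR-126a-5p (4250.0 and 6864.5, ratio 1.62). miR-126a is a miRNA of endothelial cells, miR-192 of the intestinal epithelium, and miR-127 and miR-541 come from the imprinted Dlk1-Dio3 region. The distance in log2 ratio was from 0.01 for miR-127-3p to 0.08 for miR-126a-5p.

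Other miRNAs known to act on *Kit* were split in direction. Of 7 listed, all were measured and 5 had a mean of at least 100. Of these 5, 2 had a ratio above 1 (3 with equal totals) and 3 below. At least 2-fold higher in KO was 1 and at least 2-fold lower were 2, beside the 6.33% and 8.86% of all entries given above. Their median log2 ratio was -0.15, beside -0.03 over all entries, and 0.12 beside 0.24 with equal totals. miR-34a-5p, a miRNA induced by p53, was higher, from 528.5 to 1454.9 (ratio 2.75, 2.49 to 3.05). miR-20a-5p and miR-17-5p, cut from the growth-promoting miR-17-92 transcript, were lower, with ratios of 0.165 (0.143 to 0.189) and 0.290 (0.259 to 0.326). miR-193b-3p stood at a ratio of 1.26 and miR-218-5p at 0.898, which became 1.08 with equal totals. The 2 below a mean of 100 were miR-494-3p, from 30.1 to 110.7, and miR-193a-3p, from 53.2 to 42.9.

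Of the 7 listed miRNAs known to act on the inhibitors *Cdkn1b* and *Cdkn1c*, 3 had a ratio above 1 and 4 below. All 7 reached a mean of 100. Their median log2 ratio was -0.47, beside -0.03 over all entries, and -0.20 beside 0.24 with equal totals. On the deposited scale none was 2-fold apart, where 6.33% of all entries were higher and 8.86% lower by that much. The highest ratio was that of miR-148a-3p, 1.98 (1.94 to 2.02), which became 2.40 with equal totals, and the lowest that of miR-24-3p, 0.635 (0.627 to 0.644). miR-181a-5p stood at 0.705, miR-196a-5p at 0.704 and miR-152-3p at 0.721, all below 1 with equal totals too, while miR-92b-3p stood at 1.07 and miR-25-3p at 1.05.

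Of 11 other miRNAs of smooth muscle growth and phenotype, 9 had a mean of at least 100, 3 with a ratio above 1 and 6 below (5 and 4 with equal totals). Their median log2 ratio was -0.18, and 0.10 with equal totals, each below the median of all entries on the same scale. miR-143-3p (0.694), miR-145a-5p (0.598) and miR-133a-3p (0.295), which are known to hold smooth muscle in its contractile state, were lower. miR-21a-5p, known for promoting smooth muscle growth, was higher (2.01, interval 1.95 to 2.07). miR-26a-5p stood at 1.16 and miR-146a-5p at 1.26, whereas miR-24-3p, given above, and miR-31-5p (0.884, interval 0.757 to 1.03) stood below 1. The ratio of miR-31-5p became 1.07 with equal totals. miR-10a-5p, at 0.991, likewise changed side, to 1.20. miR-1a-3p had a mean under 100, with 124.4 in WT and 58.8 in KO, and miR-663-3p had no entry. On the deposited scale miR-221-3p and miR-222-3p thus stood above 1 with 3 of the 9, miR-21a-5p, miR-26a-5p and miR-146a-5p. The other 6 stood below 1, with the contractile miRNAs, miR-24-3p, miR-31-5p and miR-10a-5p.

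Other X-linked miRNAs were examined too, since the methods list animals of both sexes and both hairpins lie on that chromosome. Outside the germline cluster between *Slitrk2* and *Fmr1*, 74 other mature entries whose names matched RefSeq map to chromosome X alone, and 19 had a mean of at least 100. Their median log2 ratio was -0.05, beside -0.03 over all entries, with 9 above a ratio of 1 and 10 below. With equal totals it was 0.23, beside 0.24 over all entries, with 15 above and 4 below. At least 1.5-fold higher were 4 of the 19, which is 21.1%, beside the 17.4% given above for all entries, and 2 were as much lower, which is 10.5%, beside 20.9%. The X-linked list leaves out 28 entries of the germline cluster, whereas the shares of all entries do not. Among those left out, miR-470-5p, miR-871-3p and miR-465b-3p were listed at 0 in WT and at 989.2, 1207.6 and 205.4 in KO. Of the 19, only miR-223-3p, a miRNA of myeloid cells, had a higher ratio than miR-221-3p (2.43, interval 2.02 to 2.95). miR-542-3p (1.74, interval 1.58 to 1.92) lay between miR-221-3p and miR-222-3p. Between miR-222-3p and miR-221-5p lay miR-322-5p, given above, miR-98-5p (3090.1 in WT and 4896.0 in KO, ratio 1.58) and miR-503-3p (ratio 1.48). The list lacks miR-532-5p and miR-421-3p, although it holds their other arms. miR-532-5p (720 in WT and 997.2 in KO, log2 ratio 0.47) would have lain there too. miR-421-3p stood at 864.5 and 850.6 (log2 ratio -0.02). miR-652-3p was lowest, at 0.604 (0.570 to 0.639).

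Markers of the cell types that the muscle wall can hold differed between the libraries beside the members. The 3 smooth muscle markers, given above, were each lower, and their sum was 0.657 times that of WT. Both endothelial markers were higher, miR-126a-3p with a ratio of 1.27 (1.23 to 1.32) and miR-126a-5p with 1.62, and their sum went from 10079.5 to 14281.5. All 4 leukocyte markers were higher, from 1.73 (miR-150-5p) to 5.01 (miR-142a-5p), and their sum went from 1449.1 to 4525.1. Between these lay miR-142a-3p at 1.82 and miR-223-3p, given above. All 3 red cell markers were higher: miR-451a stood at 2.98, miR-486a-5p at 3.71, and miR-144-3p at 2 and 20.9. Of 6 epithelial markers, 4 were higher and 2 lower, with miR-192-5p given above, miR-200b-3p at 1.41, and both lower ones above 1 with equal totals. The mesenchymal markers miR-199a-5p and miR-214-3p stood at 1.18 and 2.78, and miR-199a-3p had no entry under that name. Of the neuronal markers, miR-138-5p stood at 0.453, miR-124-3p at 0.736 and miR-9-5p at 1.09. No marker with an entry was at 0 in either library. By flow cytometry of the muscle wall at this age, the study reported a larger share of immune cells in *Dnmt1*-KO. Among the remaining cells it reported a smaller share with strong eGFP. The part of a changed mix of cells in the values of miR-221 and miR-222 was not tested. In libraries of whole tissue, more cells of a type and more RNA per cell cannot be told apart.

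**Figure D5:**
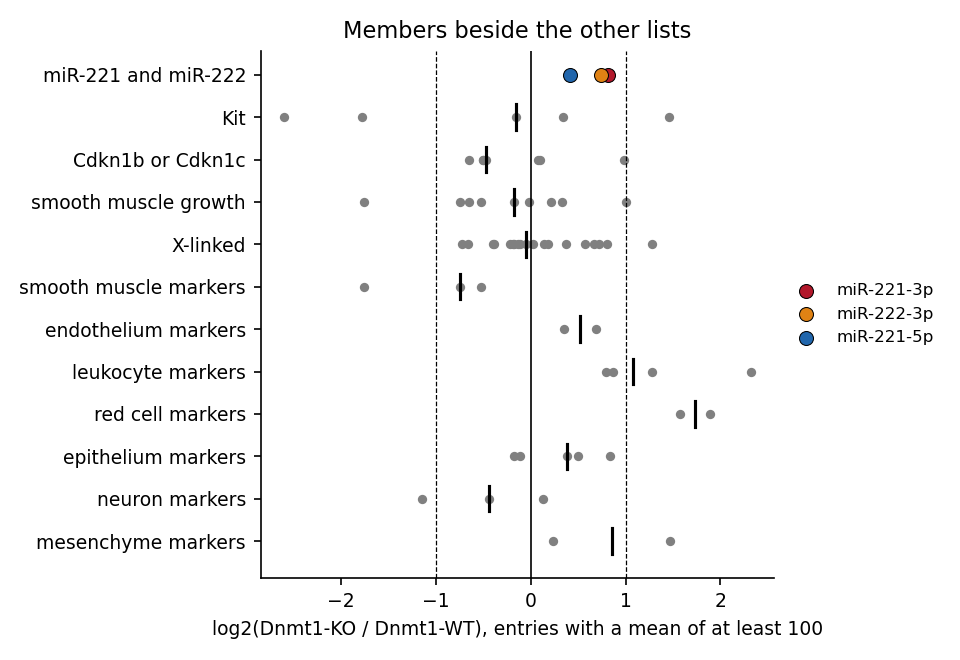
log2 KO/WT ratio of the 3 members that reach a mean of 100 (top, in colour) and of the entries of each list with such a mean (grey, 1 point each); vertical bars are list medians, the solid line marks no difference and the dashed lines 2-fold. The members lie between 0.41 and 0.81, while the *Kit* list runs across both dashed lines around a median of -0.15.

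Matches to the shared 3p seed in known target messages are given as context, since messenger RNA was not part of these libraries. The match is ATGTAGC, the reverse complement of bases 2 to 8, searched on the transcript strand in the longest annotated 3′ untranslated region (UTR) of each gene in GENCODE M21. It occurred in 9.45% of 20886 such regions. The *Kit* 3′ UTR, 2177 bases long, held 2 matches, and 15.4% of regions of like length (from 0.8 of its length up to its length divided by 0.8) held at least 1. *Cdkn1b* and *Cdkn1c* held 1 each, where 23.1% and 5.0% of regions of like length held any. *Ets1*, a transcription factor, held 2, and *Timp3*, an inhibitor of matrix proteases, held 1, where 22.6% and 24.3% of regions of like length held any. The sites of the receptor and of both cell-cycle inhibitors are printed 5′ to 3′ on the transcript strand with the seed match in capitals. Their places in GRCm38 are chr5:75654977-75654999 and chr5:75656508-75656530 (*Kit*, plus strand), chr6:134924416-134924438 (*Cdkn1b*, plus strand) and chr7:143458925-143458947 (*Cdkn1c*, minus strand).
Kit, first site: aatgatgggagatatATGTAGCa
Kit, second site: tttgtaaatattgaaATGTAGCa
Cdkn1b: ctctaaaagcattggATGTAGCa
Cdkn1c: tgggacctttcgttcATGTAGCa
Each of these 4 matches is followed by an A, the base that faces the first base of the miRNA, as is the first match of *Ets1*. The second match of *Ets1* and the match of *Timp3*, not printed, are followed by other bases. A match is a description of the sequence and not a measured site. The genes were chosen as known targets, so the shares beside them do not test for an excess of matches.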

How the data were processed

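Small RNAs isolated with a mirVana kit were made into TruSeq Small RNA libraries, and a commercial provider sequenced and annotated them against GRCm38. The submitters' processing notes name Bowtie and mm10. The miRBase release, the handling of reads with several matches and the scaling are not given in the sources used here. The values deposited by the authors are read counts multiplied by 1 factor per library, worked out from the values: 88.6% of 229 WT values from 20 to 300 and 91.1% of 248 KO values were whole multiples, within 0.06, of steps of 1.0028 and 0.9972. Division by the steps gave 5725611 and 4768097 implied reads. The deposited fold change was not used.

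Entries were matched to RefSeq by name (918 of 1080 mature entries, and 3 of 4 members). Ratios used no pseudocount. No p-value was computed, since there was 1 library per genotype. The named miRNAs are the members, entries with their seed, list and marker miRNAs with a mean of at least 100 (named below that where the list is short), the 5 nearest ratios and the neighbours in abundance. Of the X-linked list, only entries with the extreme ratios, or a ratio between those of the members, are named. miR-532-5p and miR-421-3p, missing from that list, are named too. The members and lists were chosen with earlier results of these data known. Python 3.11.15, NumPy 2.4.6, pandas 2.3.3, SciPy 1.17.1 and matplotlib 3.10.9 were used, and interval and fold code was tested on simulated data.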

Additional observations from a re-analysis of the deposited data

How the results depend on the processing

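Without replicates no result could be recomputed with a sample left out. No paired analysis was possible because each genotype had 1 library. Equal totals gave ratios of 2.12 for miR-221-3p, 2.02 for miR-222-3p, 2.07 for the sum of the 4 products and 2.09 for the sum of the 3p products. Leaving miR-143-3p out of the totals gave 1.97, 1.88, 1.93 and 1.95. Centring the median of the abundant entries, and pseudocounts of 1 and 10, left the ratios of the members within their counting intervals, as a pseudocount of 1 did for the arm share of miR-221 and the balance of the 3p products. Arms at least 2-fold apart were found in 12 hairpins, in 35 at a mean of at least 10 and in 1 at 1000. Adjacent hairpins that far apart numbered 2, with 12 at a mean of at least 10 and 0 at 1000. The 20 entries at least 2-fold higher and 28 lower became 41 and 15 with equal totals, 29 and 16 with equal totals without miR-143-3p, 306 and 265 with no minimum mean, 62 and 54 at a mean of at least 10, 6 and 10 at 1000, and 55 and 66 at 1.5-fold. These stricter or looser minimums change the number of entries tested by construction. Equal totals turned the list medians of *Kit* (-0.15 to 0.12), smooth muscle growth (-0.18 to 0.10) and chromosome X (-0.05 to 0.23) above 0, by the same 0.27 that it adds to every entry and to the median of all entries (-0.03 to 0.24). Equal totals without miR-143-3p turned those of *Kit* (0.016) and chromosome X (0.13), and a mean of at least 10 turned that of chromosome X (0.14). Hairpins with both arms lower (21) became 11 and 13 on these scales, and adjacent hairpins both lower (11) became 6 on each. These scales for directions, and the second way of forming pairs of hairpins (also 2 pairs 2-fold apart), were chosen after seeing the data. Depth limits the 5p products most, since miR-222-5p had 2 reads in WT, fewer than the 3 that a count of 0 allows.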

Other observations

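Entries next to or tied with the members in abundance are single examples of ratios at that depth. They do not give the spread of ratios, which is given above over all abundant entries. Next to miR-222-3p in WT rank stood miR-142a-5p, a leukocyte miRNA, at 578.6, which reached 2897.8 in *Dnmt1*-KO. Tied with it at 567.6 in WT were miR-224-5p, X-linked as well, at 360.0 in KO (ratio 0.634), and miR-329-5p, at 681.1 (ratio 1.20), where miR-222-3p had 1.67. Next to miR-221-3p in WT stood miR-708-5p (1252.5 and 657.1, ratio 0.525) and miR-298-5p (1226.5 and 1518.7, ratio 1.24). Next to miR-221-5p stood miR-700-5p (87.3 and 91.7, ratio 1.05) and, tied at 81.2 in WT, miR-542-5p (106.7 in KO, ratio 1.31) and miR-93-3p (35.9 in KO, ratio 0.442). In KO, miR-221-3p ranked between miR-129-5p (ratio 1.28) and miR-30a-3p (ratio 0.453), and miR-221-5p next below miR-139-3p (ratio 0.759), tied with miR-338-5p (ratio 0.886) and next above miR-337-3p (ratio 1.87). miR-222-3p ranked there between miR-125b-2-3p (ratio 1.17) and miR-470-5p, a germline miRNA at 989.2 in KO that was listed at 0 in WT.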
